A study of Mus musculus with 20 samples.

Results

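Granule cells are the small excitatory neurons that fill the inner layer of the cerebellar cortex, and this account follows 9 genes that mark them. The genes were taken by symbol for their known role as granule cell transcription factors (Neurod1, Neurod2, Pax6, Zic1, Zic2, Barhl1 and Etv1) or granule cell products (Slc17a7 and Reln). They are 9 of the 29200 genes in the count table and 9 of the 12153 genes tested.

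RNA was sequenced from the cerebellum of 20 male C57BL6/N mice in 4 groups of 5, 1 library per mouse. The 304Q/304Q mice carry a CAG repeat expansion knocked into both alleles of the ataxin-3 gene, which makes a stretch of 304 glutamines and models spinocerebellar ataxia type 3, and the WT/WT mice are littermates with normal ataxin-3 on both alleles. Each genotype was sampled at 2 months, before symptoms, and at 12 months, with symptoms. The library sums ran from 11385380 to 27636687 counts with a median of 13522932, and 304Q/304Q replicate 1 at 2 months was the deepest.

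Granule cells arise from precursors of the rhombic lip that divide at the surface of the young cerebellum, leave the cell cycle and migrate inward past the Purkinje cells. Adult granule cells receive mossy fibre input and send parallel fibres to Purkinje cell dendrites, where they release glutamate. The lineage is guided by basic helix-loop-helix factors (Neurod1, Neurod2), a paired homeodomain factor (Pax6), zinc finger factors of the Zic family, a BarH-type homeodomain factor (Barhl1) and the ETS factor Etv1, which many of them keep as adults. Slc17a7 encodes VGLUT1, which loads glutamate into synaptic vesicles, and Reln encodes reelin, a secreted protein that positions Purkinje cells during development and acts on synapses later. Several of these genes are not exclusive to granule cells: Zic1 and Zic2 are also transcribed in cerebellar interneurons and meninges, and Pax6 also in unipolar brush cells.

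The markers fitted cerebellar tissue. Gabra6, a GABA-A receptor subunit of adult granule cells, had a mean normalised read count (counts scaled to a common library size of 14212125) of 10221 over the 20 mice, and the Purkinje cell gene Pcp2 had 5067. Of 6 forebrain neuron genes 5 had a mean under 50, and of 6 brainstem and midbrain neuron genes 5 did, the exceptions being Neurod6 at 124.9 and Th at 174.9. None of the 9 granule cell genes was low: the smallest deposited count was 176, for Barhl1, and the largest 24975, for Zic1.

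Levels between genes were compared per length, as reads per kilobase of exon, scaled by library size (RPKM). In WT/WT mice at 2 months, Zic1 stood at 172 ± 11.9 RPKM (SD, n = 5) and Neurod1 at 170.5 ± 27.9. These top genes did not separate, since Zic1 was above Neurod1 in 2 of 5 mice. Slc17a7 followed at 136 ± 5.01 RPKM, below Neurod1 in 4 of 5 mice, and Zic2 at 106 ± 7.53 RPKM. Slc17a7 was above Zic2 in all 5 mice, without overlap. Neurod2 at 46.0 ± 3.91 RPKM overlapped with Etv1 at 38.3 ± 9.41 RPKM. Below them Reln at 15.2 ± 1.77, Pax6 at 11 ± 0.358 and Barhl1 at 4.35 ± 0.451 RPKM stood in 3 separate ranges. Over all 20 mice, Zic1 exceeded 98.6% of the tested genes with a known length in RPKM, Neurod1 98.5%, Slc17a7 98.3% and Barhl1 35.0%.

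The spread among mice of a group differed between the genes. At 2 months in WT/WT mice, the coefficient of variation was 24.6% for Etv1 and 16.4% for Neurod1, against 3.70% for Slc17a7 and 3.25% for Pax6. This spread set what the tests could resolve: the standard error of the log2 fold change between genotypes at 2 months was 0.16 for Etv1 and 0.04 for Slc17a7.

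Libraries also differed by the GC content of the genes they favoured, and the libraries that stood apart are named before the tests. For each library, the log2 level of every gene against its mean over the 20 libraries was regressed on the GC content of the gene (12140 genes). WT/WT replicates 1, 2 and 3 at 2 months had trends of -0.188, -0.124 and -0.126 log2 units per 10 percentage points of GC, whereas replicates 4 and 5 had 0.0742 and 0.0596. In 304Q/304Q mice at 2 months, replicate 5 stood apart at -0.137, with the others between -0.0411 and 0.0396. In WT/WT mice at 12 months, replicate 1 stood apart at -0.0755, with the others between 0.129 and 0.203. The 5 libraries of 304Q/304Q mice at 12 months lay between -0.0714 and 0.0406. The labels name no batch that these libraries share. Etv1, with 39.8% GC, Neurod1, with 43.6%, and Zic1, with 45.7%, are the members of lowest GC content. Values of their comparisons between 2 groups with this trend modelled are given below.

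**Figure D1:**
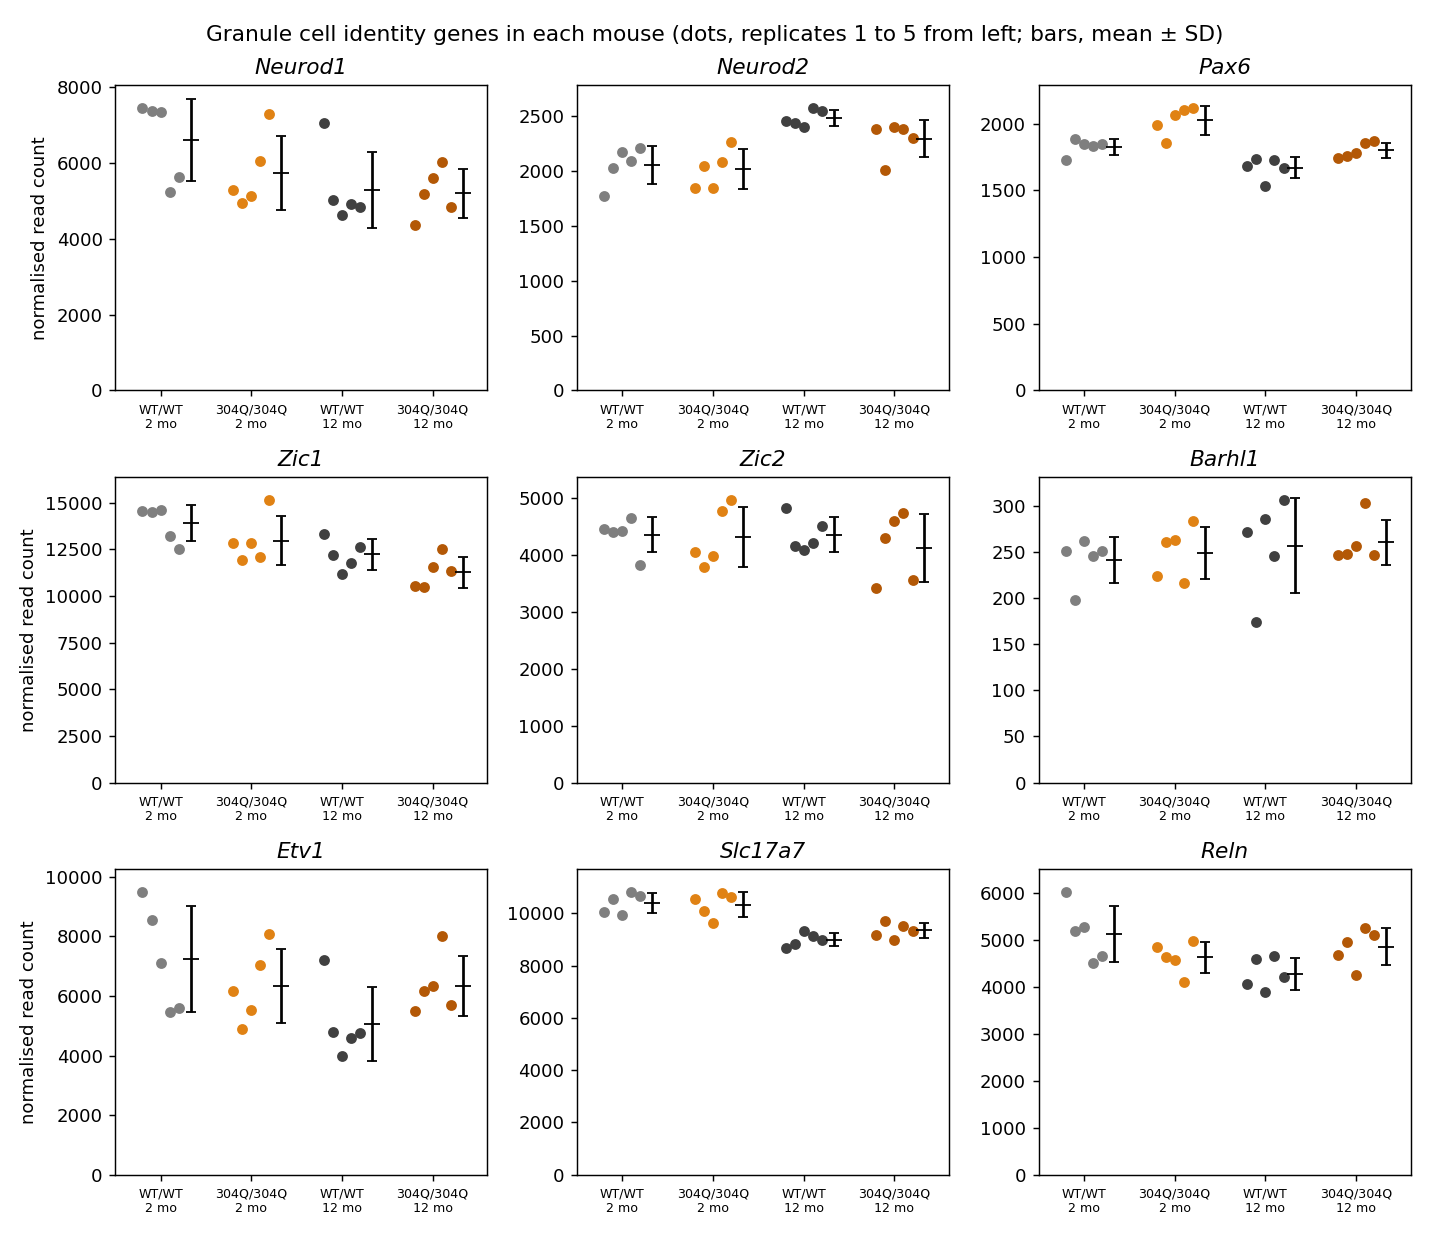
Normalised read counts of the 9 genes (y axis) in each mouse by group (x axis); dots are mice in order of replicate number and bars are the mean ± SD of 5 mice. Slc17a7 lies lower at 12 than at 2 months, and Neurod1 and Etv1 each have 1 WT/WT mouse at 12 months far above the other 4, at 7060 and 7201.

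Between the genotypes, none of the 9 genes passed the test, which here means a quasi-likelihood F test in edgeR whose p, adjusted over all 12153 genes by the Benjamini-Hochberg method (edgeR adjusted p), is at most 0.05. This comparison asks whether the repeat expansion goes along with another level of the granule cell programme. At 2 months the count was 0 of 9, beside 0.0494% of all genes, and at 12 months 0 of 9, beside 12.5% of all genes (5.23% higher and 7.3% lower in 304Q/304Q mice). DESeq2's Wald test also called 0 of 9 at both ages. At 12 months other settings called some of them. Neurod1 and Zic2 passed with 3 surrogate variables (unmeasured factors estimated from all counts) in either tool. Zic1, Slc17a7 and Reln passed with trends over GC content and gene length removed, and Neurod1 and Zic1 with the GC trend as a covariate. The share of all genes that passed in these settings is not given here, so these calls have no background beside them. At an unadjusted p under 0.05 there was 1 of the 9 at 2 months (Pax6) and 2 at 12 months (Pax6 and Reln), beside 674 and 3321 of all genes. The median log2 fold change of the 9 genes was -0.03 at 2 months and 0.02 at 12 months, and that of all genes tested was 0.00 at both ages. In these bulk samples, fewer cells of a type and less RNA per cell cannot be told apart, so a fold change describes the share of cerebellar RNA and not the number of granule cells.

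Pax6, which sets the fate of granule cell precursors and stays on in the adult cells, was measured with little spread. Its normalised read counts in WT/WT mice at 2 months were 1728, 1884, 1852, 1830 and 1848, and in 304Q/304Q mice 1988, 1855, 2069, 2101 and 2122. At 12 months the WT/WT mice had 1683, 1739, 1537, 1725 and 1672 and the 304Q/304Q mice 1746, 1757, 1782, 1856 and 1868. At 2 months 4 of 5 304Q/304Q mice lay above every WT/WT mouse, and at 12 months all 5 did, by a narrow gap. The difference was 10.9% at 2 months (log2 fold change 0.15, SE 0.05, 95% interval 0.05 to 0.25, edgeR adjusted p = 0.653). At 12 months it was 7.79% (log2 0.11, SE 0.05, 95% interval 0.01 to 0.21, edgeR adjusted p = 0.144).

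Groups did not overlap for 2 of the 9 genes at 12 months, Pax6 and Neurod2, beside 8.94% of all genes, and for 0 of 9 at 2 months, beside 1.05%. Neurod2, a helix-loop-helix factor of differentiated neurons, had 2455, 2433, 2396, 2576 and 2548 normalised counts in WT/WT mice at 12 months and 2385, 2003, 2396, 2381 and 2298 in 304Q/304Q mice. The highest 304Q/304Q mouse and the lowest WT/WT mouse both rounded to 2396, and 304Q/304Q replicate 2 was far below the rest. The log2 fold change was -0.11 (SE 0.07, 95% interval -0.25 to 0.02, edgeR adjusted p = 0.263). At 2 months it was -0.03, with an interval from -0.16 to 0.11.

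Slc17a7, the vesicular glutamate transporter that fills parallel fibre terminals, had the narrowest intervals of the 9 between genotypes. In WT/WT mice at 2 months the normalised counts were 10055, 10532, 9931, 10815 and 10649, and in 304Q/304Q mice 10528, 10079, 9629, 10781 and 10639. The groups overlapped, and 304Q/304Q replicate 3 lay below every WT/WT mouse. The fold change between genotypes was -0.627%, with a 95% interval from -6.22% to 5.30% (log2 -0.01, SE 0.04, edgeR adjusted p = 0.986). At 12 months the WT/WT mice had 8680, 8838, 9331, 9124 and 8957 and the 304Q/304Q mice 9183, 9721, 8985, 9513 and 9318. The 304Q/304Q values lay somewhat higher but within reach of the WT/WT values, and the difference was 3.98%, with an interval from -1.88% to 10.2% (log2 0.06, SE 0.04, edgeR adjusted p = 0.392). With trends over GC content and gene length removed from every library the log2 value was 0.12 and passed, and with 3 surrogate variables (unmeasured factors estimated from all counts) in edgeR it was 0.00 and did not pass.

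Reln, the secreted ligand, had a negative value at 2 months and a positive one at 12 months, and passed at neither age. At 2 months WT/WT mice had 6025, 5185, 5282, 4510 and 4666 normalised counts and 304Q/304Q mice 4851, 4644, 4569, 4114 and 4989. At 12 months WT/WT mice had 4064, 4604, 3887, 4666 and 4207 and 304Q/304Q mice 4690, 4968, 4250, 5257 and 5108. The younger WT/WT group was spread out by replicate 1, and at 12 months 4 of 5 304Q/304Q mice lay above every WT/WT mouse. The log2 fold change between genotypes was -0.15 at 2 months (SE 0.07, 95% interval -0.30 to 0.01, edgeR adjusted p = 0.883). At 12 months it was 0.18 (SE 0.07, 95% interval 0.03 to 0.33, edgeR adjusted p = 0.12). With the GC and length trend removed the values were -0.08 at 2 months, which did not pass, and 0.18 at 12 months, which passed. With the GC trend of each library as a covariate, a fit added after the data were seen, they were -0.12 and 0.10, and neither passed. The interaction of genotype and age, which tests whether these differ, gave a log2 value of 0.33 (SE 0.11, 95% interval 0.11 to 0.55, unadjusted p = 0.00494 and edgeR adjusted p = 0.119), so that a difference between the ages was not established.

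Etv1, an ETS factor of maturing and adult granule cells, was the most variable of the 9. At 2 months the WT/WT mice had 9492, 8548, 7092, 5467 and 5596 normalised counts and the 304Q/304Q mice 6164, 4898, 5537, 7025 and 8070. At 12 months the WT/WT mice had 7201, 4790, 4000, 4590 and 4745 and the 304Q/304Q mice 5489, 6172, 6328, 8005 and 5681. The high mice, named after their values were seen, were WT/WT replicates 1, 2 and 3 at 2 months, 304Q/304Q replicate 5 at 2 months and WT/WT replicate 1 and 304Q/304Q replicate 4 at 12 months. The GC trend was negative in each of these 6 libraries. It was also negative in 304Q/304Q replicate 4 at 2 months, which had 7025, and in 304Q/304Q replicates 1, 2 and 3 at 12 months. The log2 fold change between genotypes was -0.19 at 2 months (95% interval -0.52 to 0.14, edgeR adjusted p = 0.933) and 0.32 at 12 months (SE 0.16, 95% interval -0.01 to 0.65, edgeR adjusted p = 0.193). Without WT/WT replicate 1 at 12 months the second value became 0.48 and passed. With the GC trend as a covariate the values were -0.06 at both ages and did not pass. The interaction of genotype and age did not pass for Etv1 (log2 0.51, SE 0.23, 95% interval 0.05 to 0.98, edgeR adjusted p = 0.271). Its value was 0.01 with the covariate, 0.17 with 3 surrogate variables in edgeR and 0.27 with the GC and length trend removed.

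Neurod1, which drives precursors out of the cell cycle and is needed for granule cell survival, moved from mouse to mouse like Etv1. At 2 months the WT/WT mice had 7467, 7383, 7338, 5231 and 5647 normalised counts and the 304Q/304Q mice 5290, 4935, 5135, 6047 and 7309. At 12 months the WT/WT mice had 7060, 5017, 4638, 4916 and 4848 and the 304Q/304Q mice 4376, 5187, 5600, 6043 and 4840. WT/WT replicates 1 to 3 at 2 months, 304Q/304Q replicate 5 at 2 months and WT/WT replicate 1 at 12 months were again the high ones, and the genotypes overlapped at both ages. The log2 fold change was -0.20 at 2 months (SE 0.12, 95% interval -0.46 to 0.05, edgeR adjusted p = 0.914) and -0.02 at 12 months (SE 0.12, 95% interval -0.28 to 0.23, edgeR adjusted p = 0.924). With the covariate the value at 2 months was -0.11 and did not pass. The value at 12 months depended on how library differences were modelled: it was -0.32 with the GC trend as a covariate and -0.20 with 3 surrogate variables in edgeR, and passed in both. With the GC and length trend removed it was -0.09 and did not pass.

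Of the Zic genes, which keep precursors dividing and hold back early differentiation, Zic1 was the more abundant. Its normalised counts in WT/WT mice were 14563, 14497, 14626, 13211 and 12517 at 2 months and 13302, 12198, 11179, 11782 and 12647 at 12 months. In 304Q/304Q mice they were 12827, 11936, 12835, 12084 and 15153 at 2 months and 10528, 10474, 11523, 12495 and 11354 at 12 months. The genotypes overlapped at both ages, with the lowest values in 12-month-old 304Q/304Q replicates 1 and 2. At 2 months the log2 fold change of Zic1 was -0.10 (95% interval -0.23 to 0.04, edgeR adjusted p = 0.917). With the GC trend as a covariate it was -0.07 and did not pass. At 12 months the log2 fold change of Zic1 was -0.12 (SE 0.06, 95% interval -0.25 to 0.02, edgeR adjusted p = 0.253); it was -0.16 and passed with the GC and length trend removed, and -0.23 and passed with the GC trend as a covariate. Zic2 ranged from 3410 to 4961 over the 20 mice, and its log2 fold change was -0.01 at 2 months (95% interval -0.20 to 0.17) and -0.08 at 12 months (95% interval -0.26 to 0.10). With 3 surrogate variables in edgeR the Zic2 value at 12 months was -0.31 and passed, and with the GC and length trend removed it was 0.01 and did not.

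Barhl1, a homeodomain factor that acts on granule cell migration and survival, was the least abundant, with 174 to 306 normalised counts over the 20 mice. Its log2 fold change was 0.04 at 2 months, with a 95% interval from -0.21 to 0.30, and 0.02 at 12 months, with an interval from -0.23 to 0.28. The deposited counts of Barhl1 were 176 to 435 per library.

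**Figure D2:**
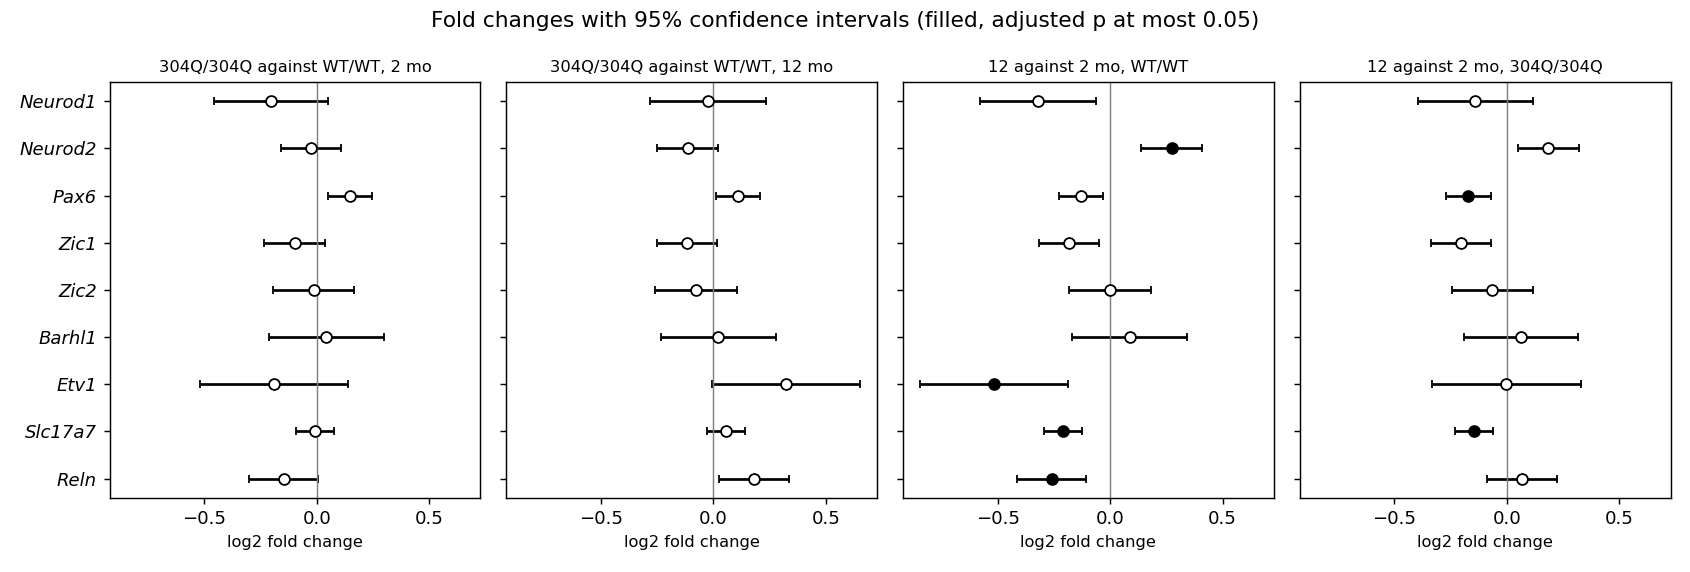
Log2 fold changes (x axis) of the 9 genes (y axis) in the 4 comparisons of 2 groups; points are edgeR estimates, bars their 95% confidence intervals, and filled points passed the test. No point is filled between genotypes, 4 are filled for age in WT/WT mice and 2 for age in 304Q/304Q mice.

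Comparing 12-month-old with 2-month-old WT/WT mice asks what normal ageing does to these transcripts. Of the 9 genes, 4 passed (11.5% of all genes did): Neurod2 rose (6.08% of all genes rose) and Etv1, Slc17a7 and Reln fell (5.42% fell). Only Etv1 also moved by 0.5 log2 units or more, as 2.58% of all genes did together with a passed test. With a library left out, 2 to 6 of the 9 and 726 to 2542 of all genes passed, against 1398 with all libraries, and with the GC trend as a covariate 1 of the 9 and 423 of all genes did. The median log2 fold change of the 9 was -0.18 and that of all genes tested 0.00, and 6 of the 9 values were negative.

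Slc17a7 was lower in every WT/WT mouse at 12 months, at 8986 ± 252 normalised counts (SD, n = 5), than in any at 2 months, at 10397 ± 384. It fell by 13.6% (log2 -0.21, SE 0.04, 95% interval -0.29 to -0.13, edgeR adjusted p = 0.002). This call was kept in each of the 11 other settings and 20 libraries left out in turn, at log2 values from -0.30 to -0.17. Neurod2 was higher in every WT/WT mouse at 12 months than in any at 2 months, when the counts were 1768, 2024, 2174, 2087 and 2208. It rose by 20.9% (log2 0.27, SE 0.07, 95% interval 0.14 to 0.41, edgeR adjusted p = 0.00944). With the GC and length trend removed the rise was 0.12 on the log2 scale and did not pass, and with the GC trend as a covariate it was 0.26 and did not pass. Groups that did not overlap made up 2 of the 9 genes, beside 6.57% of all genes.

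The calls of Reln and Etv1 for age in WT/WT mice lay nearer to the threshold. Reln fell by 16.5% (log2 -0.26, SE 0.07, 95% interval -0.41 to -0.11, edgeR adjusted p = 0.0265), and the ages overlapped between 4510 and 4666 normalised counts. The call was lost, at log2 values from -0.26 to -0.20, when replicate 1, 2 or 3 at 2 months or replicate 3 or 5 at 12 months was left out. Etv1 fell by 30.0% (log2 -0.52, SE 0.16, 95% interval -0.85 to -0.18, edgeR adjusted p = 0.0383), with replicate 1 at 12 months above replicates 3, 4 and 5 at 2 months. Its call was lost, at log2 values from -0.52 to -0.40, when replicate 1, 2 or 3 at 2 months or replicate 2, 3, 4 or 5 at 12 months was left out, and DESeq2's Wald test did not call it. With 3 surrogate variables in edgeR the values were -0.17 for Etv1 and -0.19 for Reln, and neither passed, and neither passed with only the 2 groups in the fit. The GC trend of the libraries moved with the same contrast, from a mean of -0.0608 in WT/WT mice at 2 months to 0.107 at 12 months. With the GC and length trend removed the values were -0.26 for Etv1 and -0.14 for Reln, and with the GC trend as a covariate 0.01 for Etv1 and -0.15 for Reln, and neither passed in these fits.

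The other 5 genes did not pass for age in WT/WT mice. The log2 fold change was -0.32 for Neurod1 (95% interval -0.58 to -0.06, edgeR adjusted p = 0.0923) and -0.18 for Zic1 (95% interval -0.32 to -0.05, edgeR adjusted p = 0.0658). Both passed without WT/WT replicate 1 at 12 months; Neurod1 also passed without WT/WT replicate 4 at 2 months, and Zic1 without WT/WT replicate 5 or 304Q/304Q replicate 5 at 2 months, at values from -0.45 to -0.39 for Neurod1 and from -0.22 to -0.18 for Zic1. With the GC trend as a covariate the values were 0.07 for Neurod1 and -0.03 for Zic1, and with 3 surrogate variables in edgeR -0.05 and -0.11, and none of these passed. Pax6 was at -0.13 (95% interval -0.23 to -0.03, edgeR adjusted p = 0.0776), Zic2 at 0.00 (95% interval -0.18 to 0.18) and Barhl1 at 0.09 (95% interval -0.17 to 0.34).

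In 304Q/304Q mice, 2 of the 9 genes passed between 12 and 2 months, beside 7.26% of all genes, and both fell, as 4.18% of all genes did (3.08% rose). The median log2 fold change of the 9 was -0.06. Pax6 went from 2027 ± 109 normalised counts (SD, n = 5) to 1802 ± 56.7 and fell by 11.1% (log2 -0.17, SE 0.05, 95% interval -0.27 to -0.07, edgeR adjusted p = 0.0272). Replicate 2 at 2 months, at 1855, lay within the 12-month range, and the other 4 lay above it. Slc17a7 went from 10331 ± 473 to 9344 ± 286 and fell by 9.56% (log2 -0.14, SE 0.04, 95% interval -0.23 to -0.06, edgeR adjusted p = 0.0269). Only the lowest young mouse, at 9629, and the highest old mouse, at 9721, crossed. Groups did not overlap for 0 of the 9 genes, beside 7.8% of all genes.

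Both calls were near the threshold. Pax6 was no longer called, at log2 values from -0.17 to -0.15, when 304Q/304Q replicate 3, 4 or 5 at 2 months or replicate 1, 2 or 3 at 12 months was left out. It was also lost with no filter on low counts and, at -0.14, with the GC and length trend removed. Slc17a7 was no longer called, at -0.14 to -0.13, when replicate 1, 4 or 5 at 2 months or replicate 1 or 3 at 12 months was left out, nor with no filter on low counts or with only the 2 groups in the fit. Zic1 missed the threshold at -0.20 (SE 0.06, 95% interval -0.34 to -0.07, edgeR adjusted p = 0.0608). Without 304Q/304Q replicate 2 or 4 at 2 months, 304Q/304Q replicate 4 at 12 months or WT/WT replicate 1 at 12 months it was called, at -0.24 to -0.20. It was also called by DESeq2, with 3 surrogate variables in either tool, with the GC and length trend removed and with the covariate. Neurod2 missed it too, at 0.18 (SE 0.07, 95% interval 0.05 to 0.32, edgeR adjusted p = 0.0939), and was called, at 0.19 to 0.23, without 304Q/304Q replicate 5 at 2 months, 304Q/304Q replicate 2 at 12 months or WT/WT replicate 1 at 2 months, and at 0.18 with the covariate. Etv1, at 0.00 (95% interval -0.33 to 0.33), Reln, at 0.07 (95% interval -0.09 to 0.22), Neurod1, at -0.14 (95% interval -0.40 to 0.11), Zic2, at -0.06 (95% interval -0.25 to 0.12), and Barhl1, at 0.07 (95% interval -0.19 to 0.32), did not pass. Of these, Neurod1 passed with 3 surrogate variables in edgeR, at -0.15, and in DESeq2. With the covariate the values were 0.01 for Etv1 and -0.13 for Neurod1, which did not pass, and -0.20 for Zic1.

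The interaction of genotype and age, which tests whether ageing differed between the genotypes, called 0 of the 9 genes in edgeR, beside 1.95% of all genes. DESeq2's Wald test called 0 as well, and at an unadjusted p under 0.05 there were 2, Reln and Etv1, beside 1934 of all genes. With 3 surrogate variables in edgeR Zic2 passed, at -0.30, as it did in DESeq2. A gene that passed for age in one genotype only, such as Neurod2 or Pax6, is therefore not shown to age differently in the other. For Slc17a7 the interaction was 0.07 on the log2 scale, with a 95% interval from -0.05 to 0.18, and for Pax6 it was -0.04, with an interval from -0.18 to 0.10.

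Among mice of a group, part of the 9 genes rose and fell together. Deviations of log2 normalised counts from the group means were correlated over the 20 mice for all 36 pairs, with permutation tests of 100000 resamples and Benjamini-Hochberg adjustment over the pairs. Of the 36 pairs, 6 passed, all positive and all among Neurod1, Etv1, Zic1 and Zic2. The share of all gene pairs that would pass was not tested. The median r of the 36 pairs was 0.19, and that of all pairs of tested genes was 0.00. For Neurod1 and Etv1, Pearson's r was 0.939 (permutation p = 1e-05, the smallest these resamples can give; adjusted p = 0.00036) and Spearman's rho 0.956 (permutation p = 1e-05). It was 0.912 without the 2 mice farthest from the median. For Neurod1 and Zic1, r was 0.805 (permutation p = 3e-05, adjusted p = 0.00048) and rho 0.785 (permutation p = 5e-05), with r = 0.716 without the 2 farthest mice. For Zic1 and Etv1, r was 0.786 (permutation p = 4e-05, adjusted p = 0.00048) and rho 0.767 (permutation p = 0.00018), with r = 0.732 without the 2 farthest mice.

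The other 3 pairs all held Zic2. With Neurod1, r was 0.712 (permutation p = 0.00043, adjusted p = 0.00387) and rho 0.678 (permutation p = 0.00129), with r = 0.639 without the 2 farthest mice. With Etv1, r was 0.675 (permutation p = 0.0011, adjusted p = 0.00792) and rho 0.672 (permutation p = 0.00135), with r = 0.683 without the 2 farthest mice. With Zic1, r was 0.61 (permutation p = 0.00415, adjusted p = 0.0249) and rho 0.547 (permutation p = 0.0132, adjusted p = 0.079), with r = 0.435 without the 2 farthest mice. Slc17a7 had no pair that passed; its r with the other 8 genes ran from -0.256 with Zic1 to 0.194 with Zic2, and these were -0.577 and 0.163 without the 2 farthest mice.

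The same 4 genes followed the GC trend of the libraries. That trend was fitted over 12140 genes, and the share of all genes that follow it was not tested. Over 9 relations within groups, r with the trend was -0.934 for Etv1 (permutation p = 1e-05, adjusted p = 4.5e-05), with rho -0.898 (permutation p = 1e-05) and r = -0.894 without the 2 libraries farthest from the median. It was -0.932 for Neurod1 (permutation p = 1e-05, adjusted p = 4.5e-05), with rho -0.889 (permutation p = 1e-05) and r = -0.916 without the 2 farthest. It was -0.734 for Zic1 (permutation p = 0.00028, adjusted p = 0.00084), with rho -0.692 (permutation p = 0.00092) and r = -0.719. It was -0.572 for Zic2 (permutation p = 0.00846, adjusted p = 0.019), with rho -0.559 (permutation p = 0.0116) and r = -0.565, although Zic2 has 59.9% GC. Slc17a7, with 56.6% GC, had r = 0.285 (permutation p = 0.223, adjusted p = 0.335), with rho 0.286 (permutation p = 0.222) and r = 0.0871 without the 2 farthest libraries. After the trend was regressed out, r was 0.53 for Neurod1 and Etv1, 0.491 for Neurod1 and Zic1, 0.414 for Zic1 and Etv1, 0.604 for Neurod1 and Zic2, 0.481 for Zic2 and Etv1 and 0.342 for Zic1 and Zic2, and 0 of the 36 pairs passed. Other pairs then had an r of similar size, 0.478 for Neurod1 and Neurod2, 0.483 for Etv1 and Slc17a7 and 0.454 for Zic2 and Slc17a7.

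**Figure D3:**
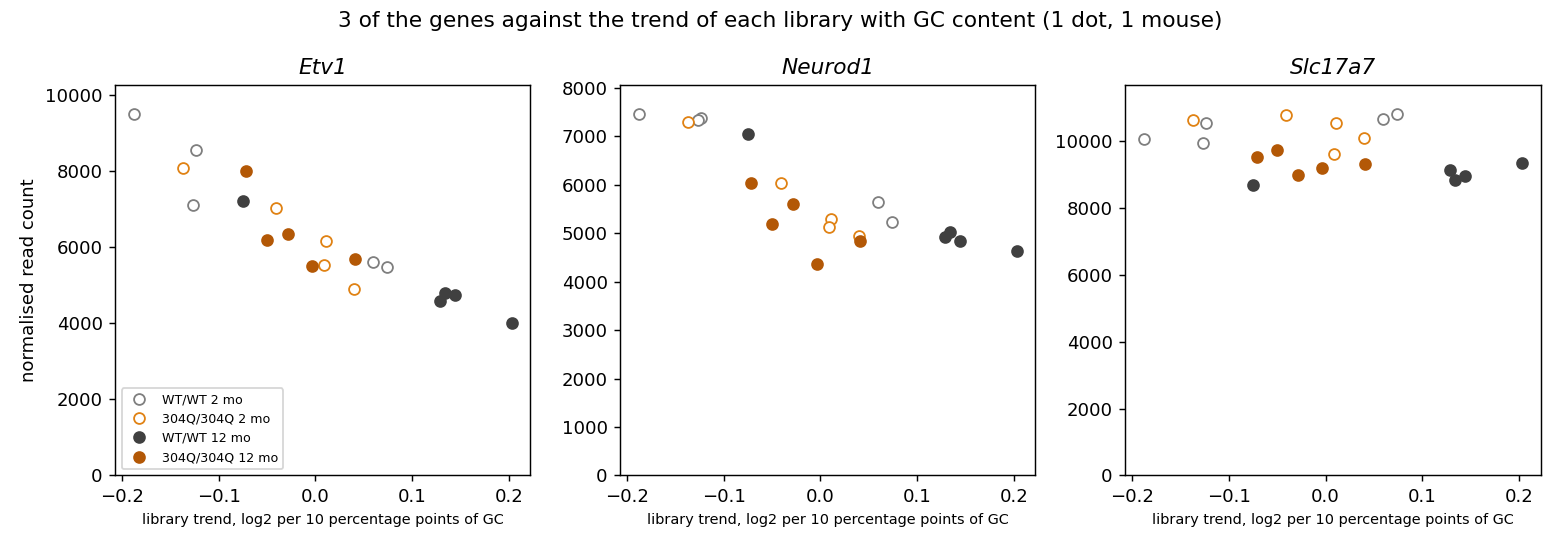
Normalised read counts (y axis) of Etv1, Neurod1 and Slc17a7 in each of 20 mice against the trend of the library with GC content (x axis, log2 units per 10 percentage points); open dots are 2 months and filled dots 12 months. Within groups the correlation with the trend is -0.934 for Etv1, -0.932 for Neurod1 and 0.285 for Slc17a7. Over the 20 libraries as plotted it is -0.95 for Etv1, -0.83 for Neurod1 and -0.35 for Slc17a7.

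The sequence before the annotated starts of Neurod1, Zic1 and Etv1, whose levels followed the GC trend of the libraries and each other, is shown as a description, from RefSeq on GRCm38.p6, where 8 of the 9 genes matched with 11 starts and Zic2 did not. Each run is the 250 bases before the start, 5′ to 3′ on the strand of the gene: Neurod1 is chr2:79456637-79456886 on the minus strand, Zic1 chr9:91365769-91366018 on the minus strand, and Etv1, with 2 starts, chr12:38779832-38780081 and chr12:38783461-38783710 on the plus strand. Capitals mark the E-box CANNTG, the motif class of helix-loop-helix factors such as Neurod1, whose pattern reads the same on both strands.
Neurod1: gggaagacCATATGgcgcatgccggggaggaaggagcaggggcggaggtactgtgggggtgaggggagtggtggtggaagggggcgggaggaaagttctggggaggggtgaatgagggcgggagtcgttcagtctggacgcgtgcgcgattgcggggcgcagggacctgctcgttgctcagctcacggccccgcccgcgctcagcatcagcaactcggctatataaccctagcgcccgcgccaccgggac
Zic1: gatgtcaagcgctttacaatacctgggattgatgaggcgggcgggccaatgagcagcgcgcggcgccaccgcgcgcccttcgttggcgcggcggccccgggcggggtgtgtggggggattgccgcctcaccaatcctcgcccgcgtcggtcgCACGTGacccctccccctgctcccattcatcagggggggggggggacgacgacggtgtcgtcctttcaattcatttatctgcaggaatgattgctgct
Etv1 start 1: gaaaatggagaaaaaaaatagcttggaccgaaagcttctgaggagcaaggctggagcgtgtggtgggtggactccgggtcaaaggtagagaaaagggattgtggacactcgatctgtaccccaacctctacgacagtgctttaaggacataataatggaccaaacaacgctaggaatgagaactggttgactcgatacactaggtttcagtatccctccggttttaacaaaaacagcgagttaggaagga
Etv1 start 2: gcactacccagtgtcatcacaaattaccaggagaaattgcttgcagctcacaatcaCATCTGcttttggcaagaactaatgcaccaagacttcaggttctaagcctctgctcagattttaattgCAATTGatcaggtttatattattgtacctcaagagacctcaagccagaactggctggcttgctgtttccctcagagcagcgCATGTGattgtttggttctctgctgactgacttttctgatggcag
The E-box was found once before Neurod1, once before Zic1, not before the first Etv1 start and 3 times before the second. It was in 9 of the 11 windows of these 8 genes and in 66.2% of 32851 promoter windows of that length. The E-box form CAGATG (or CATCTG on the other strand), which is a CANNTG as well, was in 2 of the 11 windows, those of Neurod2 and the second Etv1 start, and in 14.4% of all windows. The ETS core CCGGAA (or TTCCGG on the other strand) was in 2 of the 11, the one of Reln and the second of Barhl1, and in 12.0% of all windows. The match of letters is a description of the windows and not of binding.

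By position, the 9 genes lie on 7 chromosomes of GRCm38 (GENCODE M21): Neurod1 (ENSMUSG00000034701) at chr2:79452521-79456751, Pax6 (ENSMUSG00000027168) at chr2:105668900-105697364 and Barhl1 (ENSMUSG00000026805) at chr2:28907679-28916668, Neurod2 (ENSMUSG00000038255) at chr11:98325415-98329648, Zic1 (ENSMUSG00000032368) at chr9:91358058-91365810, Zic2 (ENSMUSG00000061524) at chr14:122475435-122479852, Etv1 (ENSMUSG00000004151) at chr12:38779380-38870484, Slc17a7 (ENSMUSG00000070570) at chr7:45163949-45176142 and Reln (ENSMUSG00000042453) at chr5:21884454-22344702. Exons of Neurod1 share 201 bases with Cerkl on the same strand and 154 with Gm26755 on the other strand. Exons of Zic1 share 60 bases with Zic4 on the other strand, and exons of Reln share 246 bases with the antisense Gm10475. The library kit keeps strand, but whether the counting used it is not given in the sources used here, and the share of partner reads in the counts of these 3 genes was not tested.

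Over the 20 libraries, the genes most like each member by Pearson's r of log2 normalised counts were named, up to 3 per member, as a description. For Etv1 they were Atp2b1 (r = 0.972), Cacnb4 (0.97) and Osbpl8 (0.969), and among those for Neurod1 were Arhgap5 (0.929) and Opcml (0.929). Those 5 genes had r between -0.962 and -0.802 with the GC trend over the 20 libraries. For Slc17a7 they were Cadm3 (0.9), Slc8a2 (0.892) and Elmo2 (0.891), whose r with the GC trend lay between -0.5 and -0.277. Zic1 was most like Slc6a5 (0.936), the glycine transporter of Golgi cells, then Atp2a2 (0.883) and Igdcc4 (0.869). Zic2 was nearest to Sypl (0.853), Aplp2 (0.827) and Gnai1 (0.802), and Reln to Pclo (0.897), 4932438A13Rik (0.871) and Hcfc1 (0.866). Pax6 was nearest to Mapkbp1 (0.85), Myo19 (0.811) and Ntf3 (0.808), Neurod2 to Nxph3 (0.841), Scrt1 (0.834) and Cox8a (0.833), and Barhl1 to Esam (0.775), Wrnip1 (0.718) and Sarm1 (0.682). With the GC trend, r was 0.437 to 0.762 for the 3 genes near Neurod2, -0.698 to -0.639 for those near Reln, -0.685 to -0.435 for those near Zic1, -0.761 to -0.556 for those near Zic2, -0.613 to -0.437 for those near Pax6 and -0.143 to 0.151 for those near Barhl1.

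Other genes of adult granule cells give the setting. Of 20 such genes, receptor subunits, synaptic proteins and nuclear factors, 1 was higher and 1 lower in 304Q/304Q mice at 2 months, 4 were higher and 1 lower at 12 months, and 0 passed the interaction. For age, 0 rose and 6 fell in WT/WT mice, and 1 rose and 3 fell in 304Q/304Q mice. Of all genes, 0.0494% passed between genotypes at 2 months, 12.5% at 12 months, 11.5% for age in WT/WT mice, 7.26% for age in 304Q/304Q mice and 1.95% in the interaction, and the same shares stand beside the counts of the next 3 lists. The median log2 fold change was -0.04 between genotypes at 2 months, -0.04 at 12 months, -0.11 for age in WT/WT mice and -0.10 for age in 304Q/304Q mice, with all genes at 0.00 in each. Cbln3, a cerebellin of granule cells, had the highest count, at a mean of 30871, and fell with age in both genotypes (log2 -0.20, edgeR adjusted p = 0.00335, and -0.14, edgeR adjusted p = 0.0425). The others that fell in WT/WT mice, named after their values were seen, were Gabra6 (-0.35), Fat2 (-0.35), Kcnd2 (-0.23), Nfia (-0.31) and Nfib (-0.48). Fat2 (-0.24) and Kcnd2 (-0.19) also fell in 304Q/304Q mice. In WT/WT mice Gabra6, Nfia and Nfib were highest in replicates 1, 2 and 3 at 2 months and replicate 1 at 12 months. These libraries had a negative GC trend. Cbln3, Fat2 and Kcnd2 did not split in this way, and the part of the trend in these falls was not tested.

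Calb2, which encodes the calcium buffer calretinin of granule cells and unipolar brush cells, passed the test between genotypes at both ages. At 2 months the WT/WT mice had 5813, 6273, 6768, 7431 and 6279 normalised counts and the 304Q/304Q mice 8595, 8966, 8829, 8066 and 7532. At 12 months the WT/WT mice had 5681, 6772, 6815, 6239 and 6902 and the 304Q/304Q mice 9312, 8825, 9619, 9441 and 9578. Every 304Q/304Q mouse exceeded every WT/WT mouse of its age. Calb2 rose by 28.9% at 2 months (log2 0.37, SE 0.06, edgeR adjusted p = 0.0148) and by 44.3% at 12 months (log2 0.53, SE 0.06, edgeR adjusted p = 3.36e-06). At 2 months the call was lost, at log2 values from 0.33 to 0.36, without WT/WT replicate 1, 2 or 5 or 304Q/304Q replicate 1, 2 or 3, and with only the 2 groups in the fit.

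Chn2, a Rac-regulating chimaerin of granule cells, was lower in every 304Q/304Q mouse than in any WT/WT mouse of its age. It fell by 17.5% at 2 months (log2 -0.28, SE 0.04, edgeR adjusted p = 0.00668) and by 17.4% at 12 months (log2 -0.28, SE 0.04, edgeR adjusted p = 0.000119), and its exons share 552 bases with 9130019P16Rik and 65 with Gm15527, both on the other strand. At 12 months Cadps2, a vesicle priming factor, rose (log2 0.28, SE 0.05, edgeR adjusted p = 0.000971). The nuclear factor I genes Nfib (log2 0.35, SE 0.08, edgeR adjusted p = 0.00555; 0.17 with the GC trend as a covariate, which passed) and Nfix (log2 0.19, SE 0.04, edgeR adjusted p = 0.00632), which drive granule cell maturation, rose too. Exons of Nfix share 137 bases with G430095P16Rik and 4 with Lyl1, both on the other strand. In Cadps2, Nfib and Nfix every 304Q/304Q mouse at 12 months was above every WT/WT mouse.

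Genes of dividing granule cell precursors were mostly too low to test: 4 of 9 reached a mean of 50 counts. Atoh1, the factor that founds the lineage, had a mean of 0.316 normalised counts, and the cell division genes Mki67 and Top2a had 5.47 and 5.05. Which cells held the RNA of the 4 genes that reached it was not tested, so their values do not describe precursors. Ptch1, the hedgehog receptor, had the highest count, at a mean of 3449. None of the 4 passed between genotypes at 2 months, 1 was higher and 1 lower at 12 months, 0 rose and 1 fell with age in WT/WT mice, 1 rose and 1 fell in 304Q/304Q mice, and 1 was positive in the interaction. At 12 months Gli1, a hedgehog target, went from 297 ± 12.4 to 222 ± 19.5 normalised counts (SD, n = 5) and fell (log2 -0.42, SE 0.10, edgeR adjusted p = 0.00715), and it shares 265 exon bases with Gm47200 and 62 with Arhgap9, both on the other strand. Ccnd1, cyclin D1, went from 303 ± 36.7 to 564 ± 38.2 and rose (log2 0.90, SE 0.09, edgeR adjusted p = 2.48e-07), and it shares 1100 exon bases with LTO1 on the other strand. The median log2 fold changes of the 4 were -0.01, -0.30, -0.08, -0.30 and -0.23 in the genotype comparisons at 2 and 12 months, for age in WT/WT mice, for age in 304Q/304Q mice and in the interaction.

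Relatives of the 9 genes (14 genes of the Neurod, Neurog, Pax, Zic, Barhl, Etv and Slc17a families, of which 9 were tested) gave 0 calls between genotypes at 2 months, 0 at 12 months and 0 in the interaction in edgeR. At an unadjusted p under 0.05 there were 0 at 2 months and 2 at 12 months, beside 674 and 3321 of all genes. With age 2 fell and 0 rose in WT/WT mice, and 2 fell and 0 rose in 304Q/304Q mice. The highest count was that of Etv5, at a mean of 971. Their median log2 fold change was 0.02 at 2 months, -0.02 at 12 months, -0.14 for age in WT/WT mice, -0.07 for age in 304Q/304Q mice and -0.02 in the interaction.

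Downstream of Reln, 12 genes of reelin signalling, its receptors, the adaptor Dab1 and kinases and partners, were all tested. None passed between genotypes at 2 months, and at 12 months 1 was lower, Lrp8, the reelin receptor ApoER2. Of the 12 log2 values at 12 months 11 were positive, and that of Lrp8 was the only negative one. Vldlr was at 0.18 and did not pass (edgeR adjusted p = 0.0676). Lrp8 had 1771, 1815, 1671, 1704 and 1552 normalised counts in WT/WT mice at 12 months and 1463, 1413, 1364, 1437 and 1662 in 304Q/304Q mice. The lowest WT/WT mouse lay below the highest 304Q/304Q mouse, and the other 304Q/304Q mice lay below every WT/WT mouse. Lrp8 fell by 13.8% (log2 -0.21, SE 0.06, edgeR adjusted p = 0.0129). With 3 surrogate variables the value was -0.19 in edgeR and did not pass, nor did it in DESeq2. With age 2 of the 12 fell in WT/WT mice and 1 in 304Q/304Q mice, 0 rose, and 0 passed the interaction. The highest count was that of Pafah1b1, at a mean of 5459. The median log2 fold change was -0.03 at 2 months, 0.08 at 12 months, -0.13 for age in WT/WT mice, 0.04 for age in 304Q/304Q mice and 0.10 in the interaction.

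Markers of other cerebellar cells moved with genotype at 12 months and with age, and their part in the values of the 9, among them the falls of Pax6 and Slc17a7 in 304Q/304Q mice, was not tested. Of all genes, 7.3% were lower in 304Q/304Q mice at 12 months, and with age 6.08% were higher and 5.42% lower in WT/WT mice and 3.08% higher and 4.18% lower in 304Q/304Q mice. The summed normalised counts of 8 Purkinje cell genes, led by Itpr1, were 81814 to 92658 in WT/WT mice at 12 months and 67643 to 74194 in 304Q/304Q mice, and 6 of the 8 were lower. For 7 myelinating oligodendrocyte genes, led by Mbp, the sums were 72486 to 82588 and 47531 to 66052, and 3 of the 7 were lower. For 8 Golgi cell and molecular layer interneuron genes, led by Pvalb, they were 25892 to 28813 and 21405 to 22618, and 3 of the 8 were lower. Most of this gap was Pvalb, with group means of 13096 (WT/WT) and 9561 (304Q/304Q), and Gad1, with 8102 and 6890. Grm2 was the third lower gene (log2 -0.52). Kit (-0.07), Tfap2b (-0.07) and Npas3 (0.11) did not pass. Which cells held the Pvalb and Gad1 RNA was not tested. The Purkinje cell, oligodendrocyte and interneuron sums did not overlap between the genotypes, whereas the sum of the 9 granule cell genes was 41335 to 49528 in WT/WT and 42055 to 50588 in 304Q/304Q mice. At 2 months the oligodendrocyte sums did not overlap either, at 78130 to 89964 in WT/WT and 67825 to 76985 in 304Q/304Q mice, and 0 of the 7 genes passed. The Purkinje cell and interneuron sums overlapped at that age.

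For 5 unipolar brush cell genes, led by Plcb4, the sums at 12 months were 11033 to 13094 in WT/WT and 9684 to 10558 in 304Q/304Q mice, with 3 of 4 tested genes lower. For 7 astrocyte and Bergmann glia genes, led by Aldoc, they were 77113 to 79346 and 63700 to 69578, with 2 of the 7 lower. Most of this gap was Aldoc, with group means of 34290 (WT/WT) and 24276 (304Q/304Q). Gfap (log2 0.19) and Aqp4 (0.15) had positive values and did not pass, and the other 5 values were negative. Which cells held the Aldoc RNA was not tested. The sums of 6 microglia genes, led by Csf1r, were 1060 to 1191 in WT/WT mice at 2 months and 1346 to 1714 at 12 months, with 3 of 5 tested genes higher with age. In 304Q/304Q mice they were 984 to 1178 and 1431 to 1913, with 3 of 5 higher. Also with age in 304Q/304Q mice, the Purkinje cell sums were 80108 to 89378 at 2 months and 67643 to 74194 at 12 months, with 5 of 8 genes lower. The oligodendrocyte sums were 67825 to 76985 and 47531 to 66052, with 5 of 7 lower, and the astrocyte and Bergmann glia sums 72120 to 81003 and 63700 to 69578, with 4 of 7 lower and 1 higher. Of the interneuron genes 2 of 8 and of the unipolar brush cell genes 2 of 4 tested were lower in that comparison. With age in WT/WT mice, 2 of 8 Purkinje cell genes were higher, 2 of 7 oligodendrocyte genes lower, 2 of 7 astrocyte and Bergmann glia genes lower, and 2 of 8 interneuron genes higher and 1 lower. The sums of 5 endothelial genes, led by Flt1, were 2199 to 2461 in 304Q/304Q mice and 2349 to 2740 in WT/WT mice at 12 months, and those of 7 meningeal genes, led by Dcn, 1218 to 1534 and 1254 to 1771. The 5 choroid plexus genes, led by Ttr, summed to 225 in the lowest library and 29667 in the highest. The sums of 5699 or more were in 304Q/304Q replicate 3 at 2 months and, at 12 months, in WT/WT replicates 1, 2 and 5 and 304Q/304Q replicates 1 and 3. None of the marker genes was at 0 in all 20 libraries.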

How the data were processed

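RNA libraries (TruSeq Stranded mRNA, polyA-enriched) of 20 cerebella were aligned by the authors with STAR to GRCm38 and counted per gene with Rsubread; the deposited values are raw counts. The labels name ataxin-2 in the genotype, and the gene of the paper and the series title, ataxin-3, is used here. Genes averaging 50 counts or more were fitted with edgeR 4.0.16 in R 4.3.3 (TMM scaling, 1 term per group over 20 libraries, quasi-likelihood F test, Benjamini-Hochberg adjustment); intervals are at 95%. Normalised counts are counts divided by effective library size and scaled to the mean of these sizes. Log2 normalised counts used a prior count of 2. RPKM used the summed exon length of GENCODE M21, which held 29150 of 29200 gene IDs. Correlations used scipy 1.17.1. Alternatives were DESeq2 1.42.0, surrogate variables (sva 3.50.0), DESeq2 size factors, other count filters, fits of 2 groups alone, a replicate block, removal of GC and length trends, the GC trend as a covariate, and each library left out. Named were all members and, of each list of related genes, the genes that passed between genotypes and the gene of highest count. The members and lists were chosen with earlier results of these data known. Mice of a group differed by more than sampling noise. The fits were checked on simulated counts.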

Additional observations from a re-analysis of the deposited data

Results flagged for a closer look

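In 36 groups of 5 mice (9 genes in 4 groups), 6 held a mouse whose gap to the nearest other made up an unusually large share of the range of the group; chance gives about 1 in 20 groups. Neurod1 had 7060 normalised counts and Etv1 had 7201 in WT/WT replicate 1 at 12 months, each far above the other 4. That library also had a GC trend of -0.0755, against 0.129 to 0.203 in the other 4, and the part of this trend was not tested in it alone. Zic1 had 15153 in 304Q/304Q replicate 5 at 2 months, whose GC trend was -0.137, far above the rest of its group. Neurod2 had 2003 in 304Q/304Q replicate 2 at 12 months, far below the others. Barhl1, the gene of lowest count, had 198 in WT/WT replicate 2 at 2 months, below its group, and 303 in 304Q/304Q replicate 4 at 12 months, above its group.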

How the results depend on the processing

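Every value of the 9 genes was recomputed under 11 other settings (10 in the interaction) and with each of 20 libraries left out; the GC trend as a covariate, and its removal from the correlations, were chosen after seeing the data. The fall of Slc17a7 with age in WT/WT mice was called in all of them. At 2 months 0 of the 9 genes was called between genotypes in each of them. Of 1386 recomputed gene values, 1302 kept their call, 32 gained one, 39 lost one and 13 changed sign; 69 values of the 9 genes and the named list genes turned sign by less than 1 standard error, uncalled in both fits, and are counted as kept.

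Between genotypes at 12 months, the count of the 9 was 2 with 3 surrogate variables in edgeR or in DESeq2, 3 with the GC and length trend removed, 2 with the GC trend as a covariate, and 0 to 1 with a library left out. The main fit called 12.5% of all genes in that comparison. Counts of all genes with surrogate variables, trend removal or the covariate are not given here for it. For age in WT/WT mice it went from 4 to 2 with surrogate variables in either tool, 2 with only the groups compared, 1 with the GC and length trend removed, 1 with the covariate, and 2 to 6 with a library left out. For age in 304Q/304Q mice it went from 2 to 4 with surrogate variables in either tool, 0 with no filter on low counts, 1 with only the groups compared, 4 with the covariate, and 0 to 3 with a library left out. In the interaction it was 1 with surrogate variables in either tool. Of the correlated pairs 6 passed with a prior count of 0.5 and 0 with the GC trend regressed out. The cause was not tested.

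The values that changed sign were, with the GC and length trend removed, Neurod2 in the interaction (0.035), Zic2 between genotypes at 12 months (0.011), for age in WT/WT mice (-0.18) and in the interaction (0.075), and Barhl1 for age in WT/WT mice (-0.090). With the covariate they were Neurod1 for age in WT/WT mice (0.074) and in the interaction (-0.20), and Etv1 between genotypes at 12 months (-0.057) and for age in WT/WT mice (0.0065). With surrogate variables they were Neurod1 in the interaction (-0.092 in edgeR, -0.087 in DESeq2) and Slc17a7 between genotypes at 12 months (-0.0028, edgeR). With a library left out, Neurod1 between genotypes at 12 months ran from -0.083 to 0.10, the latter without WT/WT replicate 1 at 12 months. The cause was not tested.

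Of all genes, the count between genotypes at 2 months went from 6 to 22 with DESeq2, 52 with DESeq2 and surrogate variables, 44 with edgeR and surrogate variables, 10 with no filter, 17 with the GC and length trend removed and 24 with the covariate. For age in WT/WT mice it went from 1398 to 820 with surrogate variables in edgeR, 739 with only the groups compared and 423 with the covariate. For age in 304Q/304Q mice it went from 882 to 1510 and 1659 with surrogate variables in edgeR and DESeq2 and 1404 with the covariate. The interaction went from 237 to 395 with DESeq2 and 410 with surrogate variables in DESeq2. With a library left out the counts of all genes ran from 4 to 10 between genotypes at 2 months, 1042 to 2076 at 12 months, 726 to 2542 for age in WT/WT mice, 670 to 969 for age in 304Q/304Q mice and 155 to 558 in the interaction.

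With the replicate block, the count of the 9 was 0 between genotypes at both ages, 4 for age in WT/WT mice, 2 for age in 304Q/304Q mice and 0 in the interaction, and that of all genes at 12 months went from 1523 to 1450. The expression values gave no sign that the numbers pair the mice. Of 30 same-numbered pairs, 6 correlated over 0.1, with a median of -0.0404, beside 0.00704 in 120 other-numbered pairs. Of 20 libraries 4 correlated best with their own number. Such correlations cannot exclude that the numbers mark litters or batches, since other library differences enter them too. Barhl1 had the fewest counts of the 9.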
